A study of Mus musculus with 18 samples.

Results

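The genes described here are 10 feedback inhibitors of Toll-like receptor (TLR) signalling, taken by name as known negative regulators: Irak3, Sigirr, Tnfaip3, Tnip1, Tnip3, Socs1, Socs3, Cish, Zfp36 and Zc3h12a. They are 10 of the 22852 genes with a row in the count files, and all 10 were among the 11305 genes with enough reads to be tested. RNA-Seq was performed on 18 samples of bone marrow-derived macrophages (BMDMs) of C57BL/6 mice, with 3 biological replicates in each of 6 groups. BMDMs are macrophages grown out of bone marrow, here in medium conditioned by L929 fibroblasts, and all 6 groups shared this culture. Unstimulated BMDMs received no LPS, the bacterial ligand of TLR4. Single-LPS BMDMs received 10 ng/ml, for 3 h according to the treatment scheme of the study. LPS-primed BMDMs were kept with 100 ng/ml for 24 h. LPS-tolerant BMDMs were primed in the same way and then given 10 ng/ml for 3 h in fresh medium. LPS-primed and LPS-tolerant BMDMs were also prepared in the presence of carboplatin, a platinum drug that crosslinks DNA, at 25 µM. The methods of the study place carboplatin 1 h before priming, while the treatment protocol in the sample labels names LPS first. No group received carboplatin without LPS, and no group received 100 ng/ml for 3 h or 10 ng/ml for 24 h.

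TLR4 signals through the kinases of the IRAK family and the ubiquitin ligase TRAF6 to NF-κB and the MAP kinases, which switch on cytokine genes. The same signal switches on its own inhibitors, and these act at successive levels of the pathway. Irak3 encodes IRAK-M, a pseudokinase that holds back the IRAK complex at the receptor, and Sigirr encodes a membrane protein that damps receptors of the IL-1 and TLR family. Tnfaip3 encodes the ubiquitin-editing enzyme A20, and Tnip1 and Tnip3 encode ABIN-1 and ABIN-3, which bind A20. Socs1, Socs3 and Cish encode members of the SOCS family, which block cytokine receptors that signal through JAK kinases and STAT factors. Zfp36 encodes tristetraprolin, which directs mRNAs with AU-rich elements to decay, and Zc3h12a encodes the ribonuclease Regnase-1, which cleaves cytokine mRNAs.

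The number of read pairs assigned to genes ran from 6869667 to 14708099 over the 18 samples (median 8986463). Values are normalized counts, which are read counts scaled to a common library size, given for replicates 1, 2 and 3 in this order. Passing the test means an adjusted p under 0.05 in edgeR's quasi-likelihood F test over all 11305 tested genes, with Benjamini-Hochberg adjustment and no limit on the fold. The summed level of 10 macrophage markers ranged from 145300 to 306000 over the 18 samples, with its lowest value in single-LPS and its highest in LPS-tolerant BMDMs. The summed level of 6 B cell markers ranged from 266.7 to 1560 in unstimulated and from 71.59 to 271.1 in single-LPS BMDMs, and reached at most 12.7 in LPS-primed BMDMs. In bulk samples, fewer cells of a type and less RNA per cell cannot be told apart. The summed level of 8 neutrophil markers, 3 of them at 0 in all 18 samples, ranged from 7.271 to 13.11 in unstimulated, from 40.82 to 120.3 in single-LPS, from 84.31 to 438.2 in LPS-primed and from 139.9 to 536.9 in LPS-tolerant BMDMs. That of 6 fibroblast or stroma markers ranged from 0 to 3.636 in unstimulated, from 2.386 to 24.65 in single-LPS, from 27.52 to 70.33 in LPS-primed and from 45.58 to 79.27 in LPS-tolerant BMDMs. Markers of T cells, dendritic cells, mast cells or basophils and erythroid cells summed to at most 48.92 in any sample. The part of these cells in the results was not tested.

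The plot of normalized counts by sample shows 3 kinds of course over the groups. Irak3 was highest at 24 h of priming, Sigirr was highest in unstimulated BMDMs, and the other 8 genes were highest after single LPS. All 3 single-LPS samples lay above every other sample for each of these 8 genes.

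**Figure D1:**
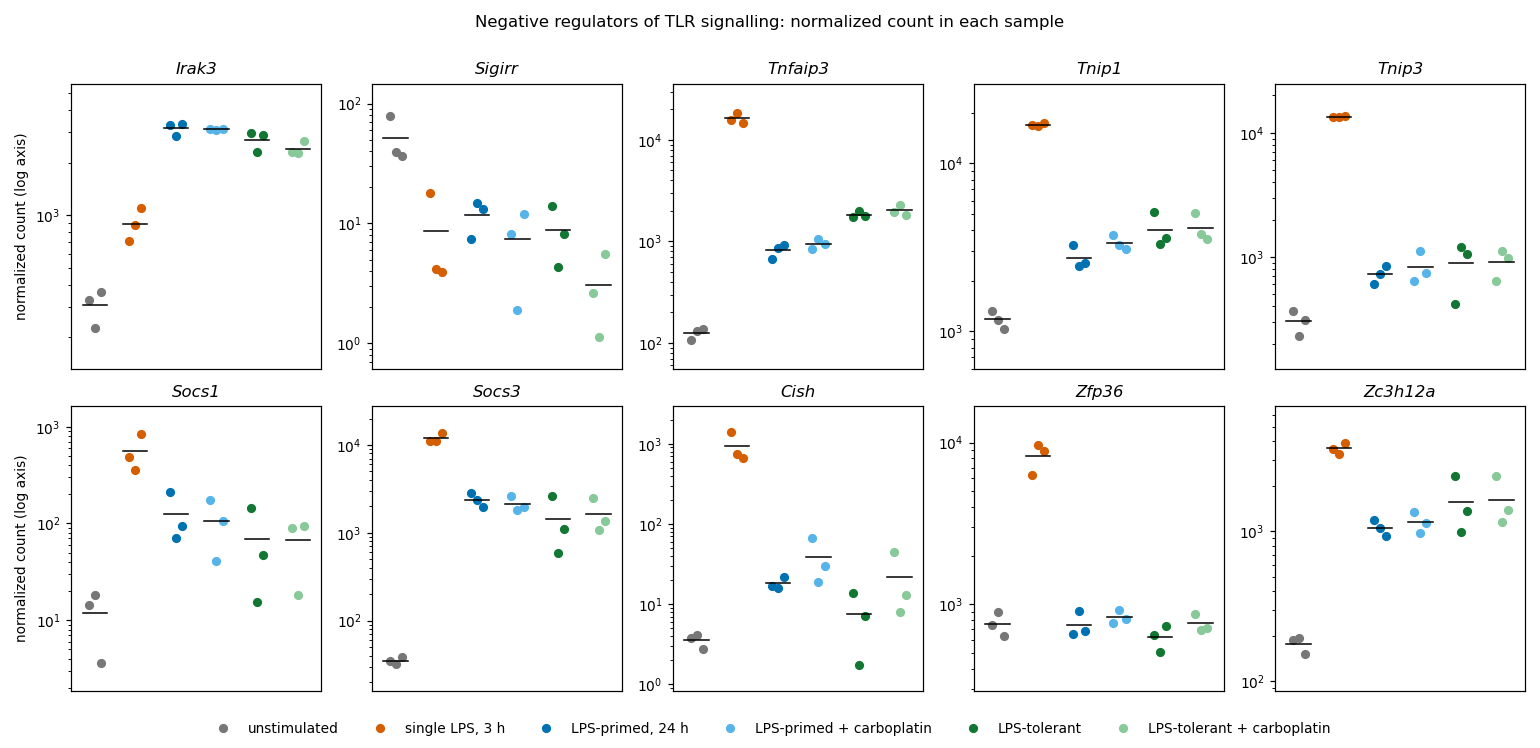
Normalized count (log axis) of each of the 10 genes in each of the 18 samples, with 3 points per group in the order of replicates 1 to 3 and a line at the group mean. Irak3 keeps its highest mean (3145) in LPS-primed BMDMs, while Tnfaip3 falls from a mean of 16340 after single LPS to 815.2 there.

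The stretches around the κB matches of the 3 genes of the A20 axis are shown, beside the STAT matches of Socs3 and Zfp36. Each is 30 bases long, from the strand of the gene, out of the 250 bases before the transcription start that RefSeq gives, with the match in capitals. The RefSeq sequences were placed on GRCm39 by exact match, and 9 of the 10 genes had at least 1 (none was given for Sigirr). RefSeq gave 2 for Irak3 and 2 for Tnfaip3. For each gene only 1 was searched, the placed one nearest to the GENCODE canonical start.

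Tnfaip3, upstream κB match, chr10:18891264-18891293, minus strand: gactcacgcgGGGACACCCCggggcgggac
Tnfaip3, κB match next to the start, chr10:18891159-18891188, minus strand: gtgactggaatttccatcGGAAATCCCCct
Tnip1, 3 overlapping κB matches, chr11:54853804-54853833, minus strand: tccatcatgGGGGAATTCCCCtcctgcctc
Tnip3, κB match, chr6:65567318-65567347, plus strand: gagacatcctGGGAAATCCCagttacatgg
Socs3, STAT match, chr11:117860328-117860357, minus strand: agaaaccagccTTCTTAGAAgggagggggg
Zfp36, STAT match, chr7:28078654-28078683, minus strand: gccacagcctgacTTCTGCGAAccgacagt

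The κB motif, the recognition sequence of NF-κB, was searched by its consensus on both strands. It occurred in the windows of Tnfaip3, Tnip1 and Tnip3 and in 7.25% of all 32851 RefSeq windows of this length. The matches lay 125 to 116 and 12 to 3 bases before the start of Tnfaip3, 58 to 47 bases before that of Tnip1 and 54 to 45 bases before that of Tnip3. The STAT motif TTCNNNGAA occurred in the windows of Socs3, Zfp36 and Tnip1 and in 7.02% of all windows. It lay 154 to 146 bases before the start of Socs3, 17 to 9 bases before that of Zfp36 and 199 to 191 bases before that of Tnip1. The AP-1 motif TGANTCA occurred in the window of Tnfaip3 alone among the 9 genes, 136 to 130 bases before the start, and in 6.75% of all windows. No match of the 3 motifs lay in the windows searched for Irak3, Socs1, Cish and Zc3h12a, and the other window of Irak3 was not searched. In the GENCODE vM39 annotation some transcripts start further upstream, so that 8 of the 9 windows overlap an exon of their gene, and the window of Tnip3 lies in an intron. The RefSeq start used lay 65085 bases from the GENCODE canonical start for Tnip3 and 6536 bases for Tnip1. A match of letters is not evidence of binding, and no binding was measured.

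The comparison of single-LPS with unstimulated BMDMs shows which inhibitors respond to the first dose. In this comparison 9 of the 10 genes rose and Sigirr fell. Over all tested genes, 24.3% rose and 26.9% fell, and the median log2FC was 4.90 over the 10 genes and -0.09 over all tested genes. The groups did not overlap for any of the 10 genes, and the 3 same-numbered pairs moved the same way for each.

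Socs3 (chr11:117856905-117860898, minus strand) had the highest log2FC, with an interval (7.28 to 9.56) that overlapped those of Cish, Tnfaip3 and, at its edge, Socs1 (3.71 to 7.32). Its level was 34.41, 31.96 and 38.17 in unstimulated and 11130, 10990 and 13680 in single-LPS BMDMs, which is a log2FC of 8.42 (SE 0.54, adjusted p = 2.44e-09). The other SOCS genes started from few reads. Cish (chr9:107173225-107179983, plus strand) had 4, 5 and 3 raw read counts in the 3 unstimulated samples, and its normalized level went from 3.824, 4.098 and 2.727 to 1410, 744.4 and 669.4 (log2FC 7.995, SE 0.68, adjusted p = 7.09e-08). Socs1 (chr16:10600104-10603875, minus strand) went from 14.34, 18.03 and 3.636 to 485.6, 359.1 and 833.1 (log2FC 5.52, SE 0.85, adjusted p = 4.67e-05).

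The A20 axis rose at all 3 of its genes. Tnfaip3 (chr10:18874201-18891405, minus strand) went from 108, 132 and 138.2 to 15860, 18540 and 14620 (log2FC 7.02, SE 0.20, adjusted p = 2.26e-13), which is 129-fold. Tnip3 (chr6:65502295-65611024, plus strand) went from 369.9, 231.1 and 309 to 13430, 13360 and 13580 (log2FC 5.47, SE 0.37, adjusted p = 4.85e-09). Tnip1 (chr11:54796320-54854661, minus strand) went from 1330, 1174 and 1034 to 17010, 16600 and 17270 (log2FC 3.85, SE 0.20, adjusted p = 2.16e-10). In all 3 genes the spread within a group was small against the distance between the groups.

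Both genes of mRNA decay rose. Zc3h12a (chr4:125012216-125021711, minus strand) went from 190.2, 194.2 and 151.8 to 3557, 3299 and 3893 (log2FC 4.32, SE 0.32, adjusted p = 1.08e-08). Zfp36 (chr7:28076209-28079710, minus strand) went from 749.4, 894.2 and 633.5 to 6338, 9684 and 8873 (log2FC 3.45, SE 0.21, adjusted p = 1.25e-09). The confidence intervals of the 2 log2FC values, 3.66 to 4.99 and 3.01 to 3.89, overlapped.

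The inhibitors at the receptor had the smallest rise and the fall. Irak3 (chr10:119975568-120038035, minus strand) went from 326.9, 227 and 361.7 to 712.3, 875.2 and 1096 (log2FC 1.55, SE 0.18, adjusted p = 2.19e-06). Its rise of 2.93-fold was below that of each of the other 8 genes that rose. Sigirr (chr7:140670832-140680517, minus strand) fell from 79.34, 39.34 and 36.36 to 17.9, 4.151 and 3.944 (log2FC -2.64, SE 0.65, adjusted p = 0.00295). These are few reads, 171 raw counts over the 3 unstimulated and 25 over the 3 single-LPS samples.

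The comparison of LPS-primed with unstimulated BMDMs asks which inhibitors stayed high at 24 h. Of the 10 genes, 8 were above unstimulated BMDMs, Sigirr was below, and Zfp36 did not pass the test. Over all tested genes, 12.1% were higher and 13.1% lower, and the median log2FC was 2.44 over the 10 genes and -0.02 over all tested genes. The unstimulated samples are shared with the comparison after single LPS.

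Irak3 had its highest group mean at 24 h of priming. Its level there was 3286, 2849 and 3301, against 326.9, 227 and 361.7 in unstimulated BMDMs (log2FC 3.37, SE 0.19, adjusted p = 1.7e-09), a rise of 10.3-fold. All 3 LPS-primed samples lay above all 3 single-LPS samples. The Irak3 gene overlaps Tmbim4 on the opposite strand and Gm67394 on its own strand in GENCODE vM39, and whether the counting used the strand is not given in the sources used here.

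Socs3 had the highest log2FC at 24 h, with an interval (5.04 to 7.13) that overlapped that of Socs1 (1.62 to 5.10). Its level was 2819, 2342 and 1968 (log2FC 6.09, SE 0.50, adjusted p = 1.06e-07), 68-fold above unstimulated BMDMs and below each single-LPS sample. Socs1 was at 211.7, 70.64 and 93.77 (log2FC 3.36, SE 0.83, adjusted p = 0.00585), with the first replicate above the other 2. Cish was at 16.93, 15.95 and 21.57 (log2FC 2.32, SE 0.77, adjusted p = 0.0351). This rests on 53 raw counts in the 3 LPS-primed and 12 in the 3 unstimulated samples, and the adjusted p lay between 0.054 and 0.098 when any 1 of these 6 samples was left out.

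Tnfaip3 was still at 676.3, 852.2 and 917.1 (log2FC 2.69, SE 0.16, adjusted p = 3.03e-09), and Zc3h12a at 1192, 1058 and 931.2 (log2FC 2.57, SE 0.29, adjusted p = 5.11e-06). The ABIN genes were nearer to their unstimulated levels. Tnip3 was at 602.2, 726.9 and 841.2 (log2FC 1.26, SE 0.32, adjusted p = 0.00712), and Tnip1 at 3251, 2432 and 2544 (log2FC 1.22, SE 0.18, adjusted p = 8.54e-05). For each of these 4 genes all LPS-primed samples lay above all unstimulated ones. Tnip1 overlaps Gpx3 on the opposite strand in GENCODE vM39.

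Zfp36 was the member whose 24 h level overlapped the unstimulated one. Its values of 659.4, 903.5 and 685.5 overlapped those of unstimulated BMDMs (log2FC -0.02, 95% confidence interval -0.42 to 0.39, adjusted p = 0.956), and the sign of this small difference changed without unstimulated replicate 2 and without LPS-primed replicate 1 or 3. Sigirr was at 7.409, 14.81 and 13.13 (log2FC -2.12, SE 0.63, adjusted p = 0.0193), below all 3 unstimulated samples. The summed B cell markers were also higher in unstimulated than in LPS-primed BMDMs (266.7 to 1560 against 3.418 to 12.7), and their part in the Sigirr result was not tested. The adjusted p of Sigirr rose to 0.0934 without unstimulated replicate 1, which had the highest value, to 0.0789 without LPS-primed replicate 1 and to 0.0541 without LPS-primed replicate 3.

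**Figure D2:**
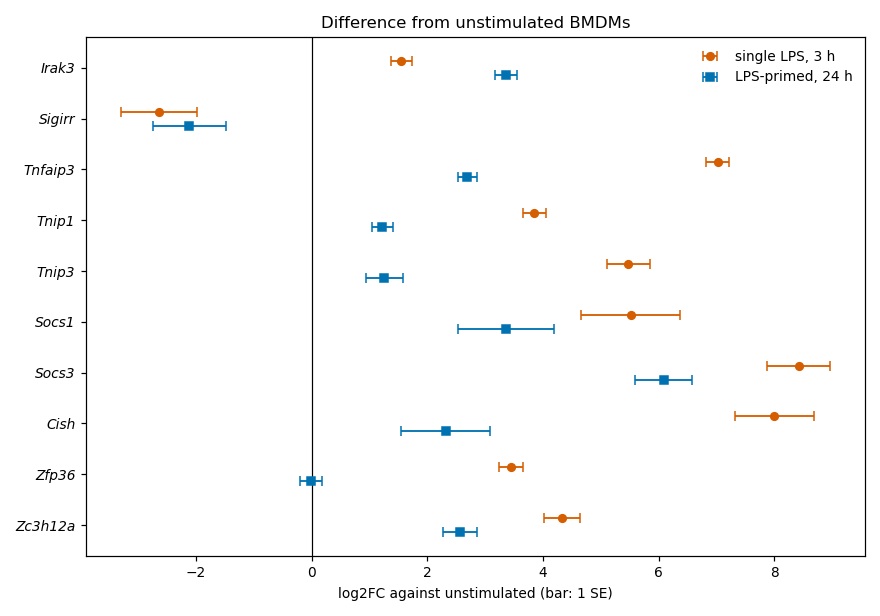
Log2FC against unstimulated BMDMs for the 10 genes after single LPS for 3 h (circles) and at 24 h of priming (squares), with bars of 1 SE from edgeR. Irak3 moves right from 1.55 to 3.37, Zfp36 returns to -0.02, and the other 7 genes that rose have a smaller log2FC at 24 h than at 3 h.

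LPS-primed BMDMs were then set against single-LPS BMDMs, which shows how much of the early level was left. The dose and the time both differ between these groups, and their effects cannot be told apart. Irak3 was the member that was higher at 24 h, 8 genes were lower and Sigirr did not pass the test. Over all tested genes, 22% were higher and 22.6% lower, and the median log2FC was -2.48 over the 10 genes and 0.03 over all tested genes.

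Irak3 stood at 351% of its single-LPS level (95% confidence interval 271% to 457%, log2FC 1.81, SE 0.18, adjusted p = 6.13e-07). Zc3h12a kept 29.6% (19.6% to 44.6%, adjusted p = 8.42e-05) and Socs1 22.5% (8.17% to 61.7%, adjusted p = 0.0178). The call for Socs1 was lost without LPS-primed replicate 2 (adjusted p = 0.0711), without LPS-primed replicate 3 (adjusted p = 0.0661) and without single-LPS replicate 3 (adjusted p = 0.0767). Socs3 kept 19.9% (11.1% to 35.7%, adjusted p = 0.000168) and Tnip1 16.2% (12.2% to 21.4%, adjusted p = 2.07e-08). These 4 genes have intervals that overlap their neighbours in this order, so their order is not resolved.

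The shares of the other genes had lower estimates. Zfp36 kept 9.03% (6.65% to 12.3%, adjusted p = 2.5e-09), Tnip3 5.38% (3.22% to 8.97%, adjusted p = 8.93e-08) and Tnfaip3 4.99% (3.89% to 6.41%, adjusted p = 2.54e-11). Cish kept 1.95% (0.84% to 4.54%, adjusted p = 8.19e-07), with an interval that overlapped those of Tnip3 and Tnfaip3. Tnfaip3 and its binding partner Tnip1 differed in this share by non-overlapping intervals, although their levels per kilobase of exon after single LPS were 1683 (SD 206, n = 3) and 1646 (SD 32.6, n = 3) normalized counts. Sigirr stood at 143% with an interval from 52% to 393% (adjusted p = 0.569).

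A gene can be well above its resting level and far below its early level at once. Socs3 was 68-fold above unstimulated BMDMs at 24 h with 19.9% of the single-LPS level, and Tnfaip3 was 6.46-fold above with 4.99%. Zfp36 kept a larger share than Tnfaip3 and had no difference from unstimulated BMDMs that passed the test. Irak3 is the gene that was above both reference groups.

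**Figure D3:**
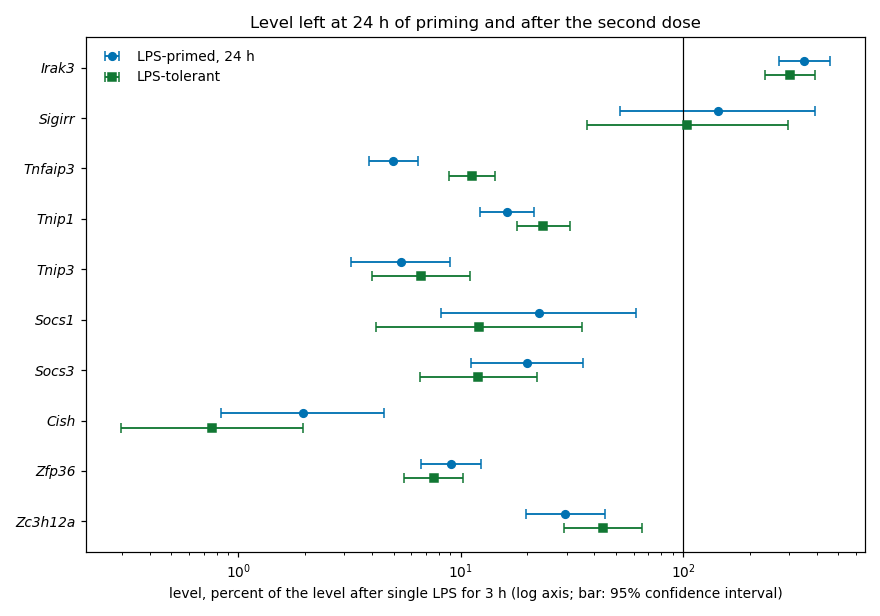
Level of the 10 genes in LPS-primed (circles) and LPS-tolerant (squares) BMDMs as a percent of the level after single LPS for 3 h (log axis), with bars for the 95% confidence interval from edgeR and a line at 100%. Irak3 lies right of the line in both groups (351% and 302%), Sigirr spans it, and the other 8 genes lie left of it.

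The order of the members within one group was read per kilobase of exon, from normalized counts divided by the merged exon length in GENCODE vM39. This length joins the exons of all annotated transcripts of a gene, and the annotation used for counting is not given. The order depends on the length used. By normalized counts alone, Tnip1 had the highest mean in unstimulated (1179), single-LPS (16960) and LPS-tolerant BMDMs (4003), and Irak3 in LPS-primed BMDMs (3145). In unstimulated BMDMs the highest levels per kilobase were those of Zfp36, at 216.7 (SD 37.3, n = 3), and Tnip1, at 114.5 (SD 14.3, n = 3). After single LPS the highest were Socs3, at 3353 (SD 425, n = 3), and Zfp36, at 2370 (SD 498, n = 3). At 24 h of priming the highest were Socs3, at 667.6 (SD 120, n = 3), and Irak3, at 555.6 (SD 45.3, n = 3), whose distance is within the spread of Socs3. In LPS-tolerant BMDMs Irak3 led with 477.8 (SD 60.7, n = 3), and Zc3h12a (404.3, SD 182, n = 3), Socs3 (404.2, SD 298, n = 3) and Tnip1 (388.6, SD 95.7, n = 3) followed within their spread. Cish and Sigirr were lowest at 24 h, at 2.828 (SD 0.467, n = 3) and 2.584 (SD 0.851, n = 3), and in LPS-tolerant BMDMs, at 1.187 (SD 0.952, n = 3) and 1.936 (SD 1.06, n = 3).

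The order of the 6 groups, from the highest mean down, was read for each gene, with neighbours called resolved where their samples did not overlap. For Irak3, the LPS-primed groups with and without carboplatin came first and overlapped each other, the LPS-tolerant groups with and without carboplatin came next and overlapped each other and the LPS-primed group without carboplatin in part, and single-LPS and unstimulated BMDMs followed, each apart. For Tnfaip3, single LPS came first and apart, then the 2 LPS-tolerant groups, the 2 LPS-primed groups and unstimulated BMDMs, with overlap only between groups that differ in carboplatin. For Tnip1, Tnip3, Socs3 and Zc3h12a, single LPS and unstimulated BMDMs stood apart at the 2 ends, and the 4 groups with 24 h of LPS overlapped from neighbour to neighbour between them. Socs1 had the same order of ends, but its lowest LPS-tolerant sample (15.54) lay below the highest unstimulated one (18.03). For Cish single LPS stood apart, the LPS-primed group was apart from the LPS-tolerant group below it, and LPS-tolerant and unstimulated BMDMs overlapped. For Zfp36 only single LPS stood apart, with means of 629.6 to 835.2 in the other 5 groups. For Sigirr only unstimulated BMDMs stood apart, and the other 5 groups had means of 3.091 to 11.78.

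The comparison of LPS-tolerant with LPS-primed BMDMs shows the response to the second dose. LPS-tolerant BMDMs also had 3 h more of culture and fresh medium, so the effects of the medium and of LPS cannot be told apart. Of the 10 genes, Tnfaip3 rose and the other 9 did not pass the test, while 3.6% of all tested genes rose and 2.71% fell. The median log2FC was -0.24 over the 10 genes and -0.01 over all tested genes. At an unadjusted p under 0.05, 2 of the 10 genes passed in edgeR and 4 in DESeq2.

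Tnfaip3 rose from 676.3, 852.2 and 917.1 to 1757, 1974 and 1783 (log2FC 1.17, SE 0.15, adjusted p = 0.000203). Every LPS-tolerant sample lay above every LPS-primed one, and all lay below the lowest single-LPS sample of 14620. Tnip1 was at 3251, 2432 and 2544 before and 5129, 3293 and 3588 after the second dose, higher in 3 of 3 pairs (log2FC 0.55, SE 0.18, adjusted p = 0.0832). With the replicate number as a block, Tnip1 passed the test (adjusted p = 0.00331).

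Socs3 was at 2631, 592.4 and 1093 in LPS-tolerant BMDMs, lower than its LPS-primed partner in 3 of 3 pairs (log2FC -0.73, SE 0.38, adjusted p = 0.296). The first replicate was far above the other 2, and the fall passed the test with the replicate block (adjusted p = 0.0337) and without LPS-tolerant replicate 1 (log2FC -1.50, adjusted p = 0.0156). The block thus gave 3 genes past the test, Tnfaip3 and Tnip1 higher and Socs3 lower, against 9.67% higher and 8.32% lower over all tested genes.

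The remaining genes had wider intervals or small differences. Zc3h12a was at 2359, 984.5 and 1377, with a log2FC of 0.57 (95% confidence interval -0.01 to 1.15), and Tnip3 at 416.6, 1194 and 1058, with a log2FC of 0.30 (-0.35 to 0.96). Irak3 was at 2944, 2311 and 2859, lower than its LPS-primed partner in 3 of 3 pairs (log2FC -0.22, -0.58 to 0.15, adjusted p = 0.524). Zfp36 was at 648.3, 504.3 and 736.1 (log2FC -0.25, -0.66 to 0.15, adjusted p = 0.503). Socs1 was at 144.3, 15.54 and 47.36 and Cish at 13.93, 1.727 and 7.206, each lower in 3 of 3 pairs with adjusted p of 0.523 and 0.293. Sigirr was at 13.93, 4.318 and 8.236 (adjusted p = 0.771).

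The difference between the responses to 10 ng/ml of LPS with and without priming was tested directly, in a contrast that joins the 4 carboplatin-free groups. The response was smaller after priming for 9 of the 10 genes, and for Sigirr the difference did not pass the test. Over all tested genes, 10.5% had a higher and 13.3% a lower response after priming, with a median difference of 0.06 over all tested genes and -4.46 over the 10 genes on the log2 scale. The second response also holds the fresh medium and 3 h more of culture, which cannot be told apart from LPS. The 4 groups enter the other comparisons as well, so these values are not independent of them.

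The difference in log2FC is given by role, and the intervals of several genes overlap across roles. Among the SOCS genes it was -9.35 for Cish (SE 0.98, adjusted p = 2.32e-06), -9.14 for Socs3 (SE 0.64, adjusted p = 2.25e-08) and -6.41 for Socs1 (SE 1.1, adjusted p = 0.000362). In the A20 axis it was -5.84 for Tnfaip3 (SE 0.23, adjusted p = 7.01e-11), -5.17 for Tnip3 (SE 0.46, adjusted p = 3.92e-07) and -3.30 for Tnip1 (SE 0.26, adjusted p = 8.11e-08). Among the genes of mRNA decay it was -3.76 for Zc3h12a (SE 0.40, adjusted p = 3.01e-06) and -3.70 for Zfp36 (SE 0.28, adjusted p = 4.79e-08). Irak3 had the smallest difference of these 9 genes, -1.77 (SE 0.25, adjusted p = 5.17e-05), from the smallest first response. Sigirr had a difference of 2.18 (95% confidence interval 0.16 to 4.20, adjusted p = 0.115).

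**Figure D4:**
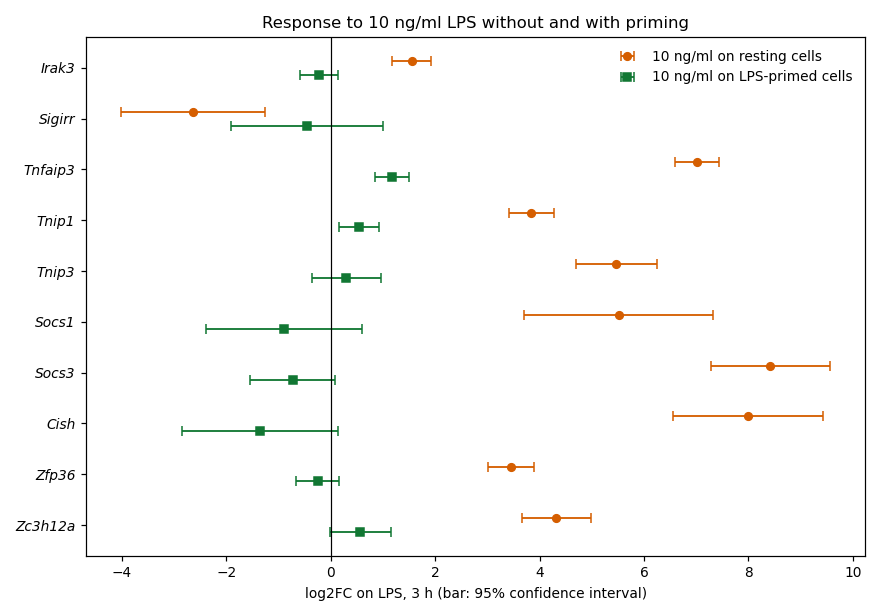
Log2FC after 10 ng/ml of LPS for 3 h on resting BMDMs (circles, single-LPS against unstimulated) and on LPS-primed BMDMs (squares, LPS-tolerant against LPS-primed), with bars for the 95% confidence interval from edgeR. The squares of all 10 genes lie within 1.5 of 0, and Tnfaip3, at 1.17, is the gene whose rise passed the test.

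LPS-tolerant and single-LPS BMDMs received the same last dose and differ in priming. A difference in time in culture or in the change of medium would come with priming and cannot be told apart from it. Irak3 was higher in LPS-tolerant BMDMs, 8 genes were lower and Sigirr did not pass the test, against 16.2% higher and 18.3% lower over all tested genes. Irak3 stood at 302% of the single-LPS level (95% confidence interval 233% to 392%, adjusted p = 3.27e-06). Zc3h12a reached 43.9% (29.3% to 65.7%), Tnip1 23.6% (18% to 31%), Socs1 12.1% (4.16% to 35%), Socs3 12% (6.59% to 22%) and Tnfaip3 11.3% (8.88% to 14.3%). Zfp36 reached 7.58% (5.57% to 10.3%), Tnip3 6.62% (4% to 11%) and Cish 0.764% (0.299% to 1.96%). The adjusted p of these 8 genes was at most 0.00348.

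Carboplatin was compared within LPS-primed and within LPS-tolerant BMDMs. None of the 10 genes passed edgeR's test in either state. In LPS-primed BMDMs 0% of all tested genes were higher and 0.372% lower, and in LPS-tolerant BMDMs 0.0177% were higher and 0.407% lower. At an unadjusted p under 0.05, 0 of the 10 genes passed in LPS-primed BMDMs in edgeR, DESeq2 and limma-voom. In LPS-tolerant BMDMs 1 passed in edgeR and in DESeq2 and 0 in limma-voom.

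The gene at an unadjusted p under 0.05 in edgeR was Cish. It was at 13.93, 1.727 and 7.206 in LPS-tolerant and 44.58, 7.968 and 12.86 in LPS-tolerant BMDMs in the presence of carboplatin, higher in 3 of 3 pairs (log2FC 1.55, 95% confidence interval 0.06 to 3.05, unadjusted p = 0.0423, adjusted p = 0.717 in edgeR). In LPS-primed BMDMs it was at 16.93, 15.95 and 21.57 without and 66.18, 18.8 and 30.19 with the drug, also higher in 3 of 3 pairs (log2FC 1.03, -0.19 to 2.25, adjusted p = 0.826 in edgeR). These levels rest on 20 to 99 raw counts per group of 3 samples.

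For the genes with many reads the intervals were narrow. Irak3 was at 3095, 3084 and 3107 with carboplatin in LPS-primed BMDMs (log2FC -0.02, 95% confidence interval -0.39 to 0.34) and at 2299, 2254 and 2647 in LPS-tolerant BMDMs (log2FC -0.17, -0.54 to 0.19). Tnfaip3 was at 836, 1048 and 948 (log2FC 0.21, -0.11 to 0.53) and at 1929, 2299 and 1834 (log2FC 0.14, -0.18 to 0.45). Tnip1 was at 3721, 3282 and 3069 (log2FC 0.29, -0.09 to 0.67) and at 5072, 3818 and 3551 (log2FC 0.05, -0.33 to 0.43). For these 3 genes the intervals lie within 0.7 of 0 on the log2 scale.

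Zfp36 had log2FC values of 0.16 (-0.25 to 0.56) in LPS-primed and 0.27 (-0.13 to 0.68) in LPS-tolerant BMDMs, and Zc3h12a of 0.13 (-0.45 to 0.70) and 0.05 (-0.53 to 0.62). Tnip3 had 0.20 (-0.45 to 0.86) and 0.03 (-0.62 to 0.69), and Socs3 -0.16 (-0.97 to 0.64) and 0.20 (-0.61 to 1.01). Socs1 had -0.25 (-1.71 to 1.21) and 0.01 (-1.51 to 1.54). Sigirr had -0.69 (-2.18 to 0.81) and -1.37 (-3.10 to 0.35), and its counts set the limit, with 9 raw counts over the 3 LPS-tolerant samples with carboplatin. The difference between the carboplatin effects in the 2 states passed the test for 0 of the 10 genes and for 0% of all tested genes in either direction, and at an unadjusted p under 0.05 for 0 of the 10 genes in edgeR, DESeq2 and limma-voom.

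**Figure D5:**
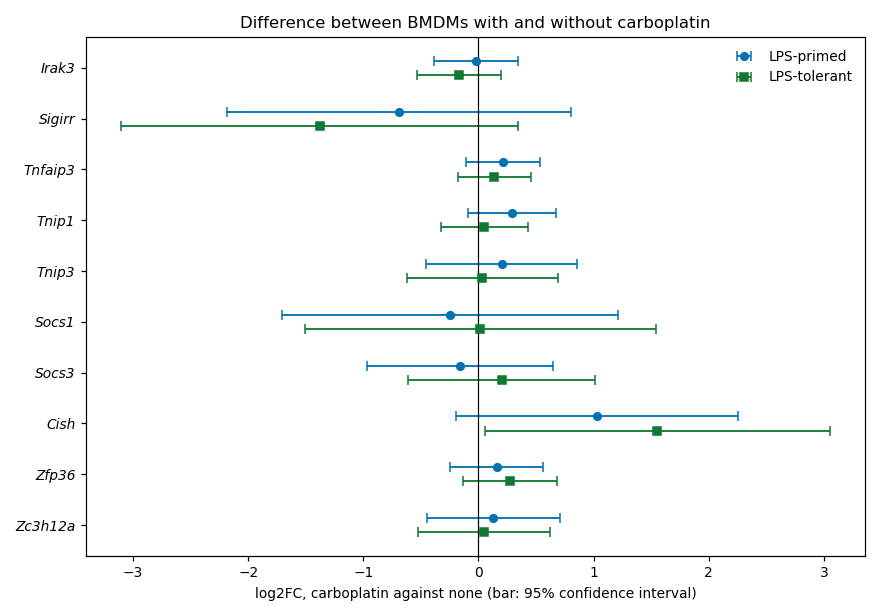
Log2FC between BMDMs with and without 25 µM carboplatin in the LPS-primed (circles) and LPS-tolerant (squares) state for the 10 genes, with bars for the 95% confidence interval from edgeR. The bars of 9 genes span 0 in both states, and the bar of Cish in LPS-tolerant BMDMs runs from 0.06 to 3.05.

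The courses of the members over all 18 samples were compared by Pearson's r of log2 CPM (read counts scaled to library size), as a description, since the points share groups and replicates. Tnfaip3 and Tnip1 were most alike (r = 0.969), and Socs3 and Zc3h12a followed (r = 0.963). Tnip3 was most like Tnip1 (r = 0.911), and Cish and Zfp36 were most like each other (r = 0.91). Irak3 had no close partner among the members, with r = 0.591 to Socs3 as its highest value. Outside the members, the genes most like Irak3 were Cfb, complement factor B (r = 0.989), and Saa3, an acute-phase protein (r = 0.988). Those most like Tnip1 were Stx11 (r = 0.995) and Nfkb2, an NF-κB subunit (r = 0.99), and those most like Tnip3 were Icam1, an adhesion molecule (r = 0.98), and Stip1 (r = 0.977). Tnfaip3 was most like St3gal1 (r = 0.979) and Cct6a (r = 0.978), Socs3 like Cdc42ep2 (r = 0.985) and Orai2 (r = 0.981), and Zc3h12a like Rhbdf2 (r = 0.99) and Adora2b (r = 0.989). Zfp36 was most like Mycl (r = 0.986) and Il34 (r = 0.983), Cish like Sbno2 (r = 0.969) and Rnd1 (r = 0.963), Socs1 like Ddit4 (r = 0.94) and Cebpd (r = 0.934), and Sigirr like Mbtps1 (r = 0.927) and Haus5 (r = 0.903).

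The lists that follow are read against all tested genes, of which 24.3% rose and 26.9% fell after single LPS (median log2FC -0.09), 12.1% were higher and 13.1% lower at 24 h (median log2FC -0.02), and 3.6% rose and 2.71% fell at the second dose (median log2FC -0.01), or 9.67% and 8.32% with the replicate block. Of 71 other negative regulators tested, 37 rose and 15 fell after single LPS (median log2FC 0.59), and 20 were higher and 12 lower at 24 h of priming (median log2FC 0.23). After single LPS the largest rises were those of Acod1, which makes itaconate (log2FC 8.13, SE 0.45, adjusted p = 4.65e-10), Dusp2, a MAP kinase phosphatase (7.78, SE 0.49), and Il1rn, the IL-1 receptor antagonist (7.32, SE 0.64). The largest falls were those of Dusp6 (-2.33, SE 0.48), Zfp36l2, a relative of Zfp36 (-1.93, SE 0.32), and the ubiquitin ligase Cblb (-1.87, SE 0.24).

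At 24 h Acod1 (log2FC 6.96, SE 0.43), Siglece, an inhibitory receptor for sialic acids (4.64, SE 0.34), and Il1rn (4.47, SE 0.57) were highest above unstimulated BMDMs, with adjusted p of at most 1.66e-05. As Irak3 did, 12 of the 71 genes had a higher level at 24 h than after single LPS, and 35 had a lower one, against 22% and 22.6% of all tested genes. Siglece was 1 of the 12, at 660.4 to 908.7 against 52.5 to 87.75 after single LPS. Nr4a1 (-2.68, SE 0.74), the inhibitory receptor gene Cd300a (-2.48, SE 0.17) and Nlrc3 (-2.13, SE 0.57) were lowest.

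At the second dose 9 of the 71 rose and 6 fell (median log2FC 0.20), or 19 and 10 with the replicate block. The largest rises were those of Nr4a1 (log2FC 3.45, SE 0.74, adjusted p = 0.00923), Dusp4, a MAP kinase phosphatase (2.34, SE 0.30, adjusted p = 0.000203), and Nlrc3 (1.97, SE 0.57, adjusted p = 0.0487). The largest falls were those of Zfp36l1, another relative of Zfp36 (-2.30, SE 0.35, adjusted p = 0.000687), Bcl3 (-1.35, SE 0.28, adjusted p = 0.0082) and Nlrc5 (-1.30, SE 0.20, adjusted p = 0.000701). Zfp36l1 was at 548.6 to 925.1 in LPS-primed and at 119.2 to 148.1 in LPS-tolerant BMDMs.

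The components on which the 10 inhibitors act were a list of 37 receptors, adaptors, kinases and STAT factors. After single LPS 21 rose and 6 fell (median log2FC 0.79), and at 24 h 11 were higher and 1 lower (median log2FC 0.20). Jak2, a kinase that SOCS proteins block, was highest above unstimulated BMDMs in both comparisons, with a log2FC of 5.04 (SE 0.28) after single LPS and 2.72 (SE 0.25) at 24 h. Stat5a (3.92, SE 0.17) and Ripk2 (3.75, SE 0.27) followed after single LPS, and Cd14, the LPS co-receptor (2.53, SE 0.52), and Csf2rb (1.45, SE 0.18) at 24 h. The largest falls after single LPS were those of Il6ra (-1.91, SE 0.33), Tab1 (-1.73, SE 0.30) and Ticam2 (-1.38, SE 0.35), and Il6st was the gene lower at 24 h (-1.35, SE 0.39). At the second dose 1 of the 37 rose and 3 fell (median log2FC 0.05), or 2 and 7 with the replicate block. Irak2 rose (0.97, SE 0.17), and Ticam2 (-2.02, SE 0.36) and Ifngr1 (-0.78, SE 0.21) were among the genes that fell.

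The mRNAs that Zfp36 and Zc3h12a are known to bring to decay were a list of 22, of which 21 were tested. All 21 rose after single LPS, and 14 were higher and 1 was lower at 24 h. The median log2FC was 7.19 and 4.12, or 6.45 and 3.15 with the genes at 0 in unstimulated BMDMs set to their lower bound. Il6 had no read in the 3 unstimulated samples. Its group mean was at least 292-fold above a floor of 3 counts per library after single LPS and at least 26.1-fold at 24 h. These bounds hold for the means, and the samples ran from 427.6 to 1444 after single LPS and from 6.836 to 122.8 at 24 h. Il1a (log2FC 11.02, SE 1.1) and Ptgs2 (10.74, SE 0.94) were next after single LPS, and Cxcl3 (8.50, SE 1.5) and Il1b (8.24, SE 1.18) at 24 h. Il10 was the gene lower at 24 h (-1.69, SE 0.59, adjusted p = 0.0444). At the second dose 3 of the 21 rose, or 9 with the replicate block, and the median log2FC was 1.26. The 3 genes were Tnf (2.92, SE 0.30, adjusted p = 4.18e-05), Ccl3 (2.74, SE 0.35) and Plaur (2.24, SE 0.44), while Zfp36 itself had no rise that passed the test.

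Cytokine genes taken as inducers of signalling through JAK kinases and STAT factors were a list of 13, of which 8 were tested. Which of their receptors SOCS proteins block was not examined. After single LPS 7 rose, among them Il6, Csf2 and Il10 (log2FC 7.20, SE 0.51), with a median log2FC of 6.20, or 5.62 with the lower bounds. Csf2 had 0 reads in unstimulated BMDMs and a single-LPS mean at least 62.8-fold above the floor, from samples of 42.39 to 417.6. At 24 h Il6 was higher and Il10 lower, with a median log2FC of 0.56, or 0.30 with the bounds, while Socs3 and Socs1 were both above unstimulated BMDMs. At the second dose 0 of the 8 passed edgeR's test, 2 passed at an unadjusted p under 0.05 and 2 passed with the replicate block. Il10 was at 3620 to 5547 after single LPS, at 2.813 to 14.82 in LPS-primed and at 15.44 to 58.24 in LPS-tolerant BMDMs.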

How the data were processed

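Stranded mRNA libraries of 18 BMDM samples were sequenced as read pairs. Alignment to GRCm39 used HISAT2 and counting used HTSeq-count. What the authors deposited are raw counts per gene symbol, not normalized. Program versions, gene annotation and strand setting are not given in the sources used here. Rows that name no gene held 41.5% to 46.9% of the counts and were left out of library sizes. Few reads limit the precision for Cish and Sigirr.

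Groups were taken from the labels, and the 3 h of the single dose from the study's treatment scheme. The labels do not say which cultures or animals the replicates came from, and p values measure the spread between these samples. All 18 samples were fitted with edgeR 4.0.16 in R 4.3.3 (TMM, filter of minimum count 10 and minimum total 15, a mean for each of 6 groups, prior count 0.125, quasi-likelihood F test), and p values were adjusted by Benjamini-Hochberg over all 11305 tested genes. The SE is |log2FC| over the root of the F statistic, and intervals use the t quantile of edgeR's degrees of freedom. For normalized counts, each count was divided by its TMM-scaled library size, and the quotient was brought to the mean size of 9307681.

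Same-numbered samples deviated together (mean correlation 0.349 over 45 pairs of samples, 44 of them over 0.1, lowest 0.0631), so the comparisons were also fitted with a block for the replicate number. The main fit has no block, and the blocked fit is an alternative in every comparison. The 1 pair under 0.1 was in the comparison of LPS-primed with single-LPS BMDMs. No 2 replicates agreed within sampling noise (chi-square per gene at least 18).

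Alternatives were RLE factors or library size alone, no filter, at least 10 counts in every sample compared, DESeq2 1.42.0, limma-voom (limma 3.58.1), only the samples compared, a prior count of 2, log2FC limits of 1 and 2, and leaving out each sample. The 10 genes, the gene lists and the rules were chosen with earlier results of these data known. All 10 genes are named throughout. From each other list, up to 3 genes per direction are named by the largest log2FC among those past the test that moved the same way in 3 of 3 pairs, after single LPS, at 24 h and at the second dose. A gene that this rule picks is not reported here. Siglece, Zfp36l1 and Il10 levels were added after their values were seen. Gene positions and exon lengths are from GENCODE vM39 and promoter sequences from RefSeq (table on GRCm38.p6), with coordinates given on GRCm39.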

Additional observations from a re-analysis of the deposited data

Results flagged for a closer look

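The response to 10 ng/ml of LPS differed between LPS-primed and resting BMDMs for 9 of the 10 genes, by edgeR's quasi-likelihood test of the difference itself with adjustment over all tested genes. The difference on the log2 scale was -9.35 for Cish, -9.14 for Socs3, -6.41 for Socs1, -5.84 for Tnfaip3, -5.17 for Tnip3, -3.76 for Zc3h12a, -3.70 for Zfp36, -3.30 for Tnip1 and -1.77 for Irak3. It had the same sign in 3 of 3 same-numbered sets of samples for each of these genes, and the largest adjusted p was 0.000362, for Socs1. The first response shares no sample with the second one, but the groups differ in the level from which the response starts, and the part of that level was not tested. The part of the fresh medium given with the second dose was not tested either.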

How the results depend on the processing

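Of 1241 log2FC values of the 10 genes under the alternatives, 1193 kept their direction and their side of the threshold. The difference between the carboplatin effects and the counts of genes past the test were not among these values. At the second dose the count of genes past the test was 1, and it was 3 with the replicate block (Tnfaip3, Tnip1 and Socs3), 0 with the limits of the study (an absolute log2FC over 2) and 1 to 2 over the fits that leave out 1 sample each, with 2 without LPS-tolerant replicate 1. The block moved no other call of the 10 genes. At 24 h of priming, the count of 9 became 7 to 8 when 1 sample was left out, 8 with limma-voom (Cish, adjusted p = 0.12) and 6 with at least 10 counts in every sample, a filter that removes low genes. After single LPS that filter left 7 genes past the test. The count for the response with against without priming was 9 to 10 when 1 sample was left out, since Sigirr passed without single-LPS replicate 1 (log2FC 3.17, adjusted p = 0.021).

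The values that changed sign were small ones that passed no test, and the cause was not tested. For carboplatin in LPS-tolerant BMDMs, the log2FC of Socs1 was -0.0056 with RLE factors, -0.00055 with at least 10 counts, -0.041 in DESeq2 and -0.0087 in a fit of the samples compared. Over the fits that leave out 1 sample each, it ranged from -0.48 to 1.13 for Socs1, -0.31 to 0.30 for Tnip3, -0.22 to 0.97 for Socs3, -0.12 to 0.27 for Tnip1 and -0.31 to 0.46 for Zc3h12a in LPS-tolerant BMDMs. For carboplatin in LPS-primed BMDMs it ranged from -0.090 to 0.013 for Irak3, -0.77 to 0.35 for Socs1, -0.069 to 0.36 for Tnip3 and -0.0027 to 0.24 for Zc3h12a. It ranged from -0.17 to 0.13 for Zfp36 at 24 h against unstimulated BMDMs and from -0.39 to 1.05 for Sigirr in LPS-tolerant against single-LPS BMDMs.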

Other observations

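Within the groups that received LPS for 24 h, replicate 1 often lay at an end of the range for the same genes, a pattern seen after the values were examined. Over these 4 groups, replicate 1 was the highest of the 3 in 4 of 4 for Tnip1, Socs3 and Zc3h12a and in 3 of 4 for Socs1 and Cish, and it was the lowest in 4 of 4 for Tnip3 and in 3 of 4 for Tnfaip3. In unstimulated and single-LPS BMDMs, replicate 1 was highest in 1 of 2 groups for Tnip1, Cish and Tnip3 and in 0 of 2 for Socs1, Socs3 and Zc3h12a. It was lowest there in 1 of 2 groups for Tnfaip3 and in 0 of 2 for Tnip3. Among LPS-tolerant samples, Socs3 ran from 592.4 to 2631 and Zc3h12a from 984.5 to 2359, while Tnfaip3 ran from 1757 to 1974.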
